A study of Ovis aries with 14 samples.

Results

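The genes described here form the hypothalamic side of growth hormone control: GHRH (growth hormone-releasing hormone), SST (somatostatin) and GAL (galanin), with the receptors GHRHR (for GHRH), SSTR2 (for somatostatin) and GHR (for growth hormone). They were chosen by name, from the gene name on the array or the symbol matched to it. The 6 genes had 9 of the 15008 probes on the array, and all 9 were kept among the 13740 probes tested. The tissue was hypothalamus from sheep fetuses near day 130 of gestation, read on 1-colour Agilent ovine arrays. In the direct arm the fetus received vehicle (n = 4) or triclosan, an antibacterial agent of soaps and other consumer goods, at 250 µg per day (n = 4) for 2 days through an intravenous catheter. In the indirect arm the ewe received vehicle or triclosan at 100 µg/kg per day (n = 3) for 2 days. Of the 3 deposited maternal vehicle arrays, replicate 3 equalled 0.6 times replicate 1 plus 0.4 times replicate 2 at all 15744 spots, within a relative tolerance of 1e-04, so it was left out and this group had n = 2. The labels do not say whether any of the fetuses were litter mates, and p-values measure only the spread between these samples.

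GHRH is made by neurons of the arcuate nucleus and is carried by the portal blood to the pituitary, where it drives growth hormone release through GHRHR. Somatostatin, made by periventricular neurons among others, restrains that release through its receptors. Galanin is a peptide of many hypothalamic neurons and favours growth hormone release. Growth hormone itself acts back on the hypothalamus through GHR, which signals through the transcription factor STAT5.

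The probes of the 3 peptide genes show how closely the measurements of each gene depend on each other, since each gene had a pair of nearly identical 60-base probes. The sequences are those in the scanner files, and capitals mark the bases shared by both probes of the gene.
GHRH, first probe: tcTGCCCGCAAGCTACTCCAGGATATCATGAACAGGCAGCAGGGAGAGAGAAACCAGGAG
GHRH, second probe: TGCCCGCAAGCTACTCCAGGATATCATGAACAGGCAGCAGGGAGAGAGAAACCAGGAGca
SST, first probe: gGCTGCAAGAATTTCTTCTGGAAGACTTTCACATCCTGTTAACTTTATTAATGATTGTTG
GAL, first probe: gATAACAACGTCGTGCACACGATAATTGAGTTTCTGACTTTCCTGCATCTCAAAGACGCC
The GHRH probes shared 58 bases, and the SST and GAL probes shared 59 bases with their partners. The SST probe held an in-frame TAA stop at its bases 40 to 42, so it spanned the end of the coding region, which encodes the end of mature somatostatin. The probes of a gene differed by at most 0.31 (GHRH), 0.25 (SST) and 0.28 (GAL) on the log2 scale on any of the 13 arrays. They are repeat readings of the same stretch of the transcript and add no replicates. The first, brighter probe stands for its gene below. GHRHR, SSTR2 and GHR had 1 probe each. The GHRHR and SSTR2 probes are shown because each was the only reading of its receptor.
GHRHR: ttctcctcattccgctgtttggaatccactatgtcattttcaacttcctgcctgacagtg
SSTR2: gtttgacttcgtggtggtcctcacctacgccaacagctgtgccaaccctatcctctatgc

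Levels are given as the log2 processed signal minus the 75th percentile of the array, so a level of 0 is the signal of that percentile and a step of 1 is a 2-fold change. Levels of different probes are not compared. Array medians of the processed signal ran from 236 to 380, with the fetal triclosan arrays at 236 to 307. No spot was saturated, and 83.3% to 90.1% of spots per array stood well above background. The peptides AGRP, POMC, NPY, OXT and PMCH, which mark hypothalamic neurons, were well above background on all 13 arrays. GH, the growth hormone gene of the pituitary, was well above background on 2 of 13 arrays with its brighter probe. These were replicate 2 of maternal vehicle (−4.88) and replicate 2 of maternal triclosan (−4.46). PRL, another pituitary gene, was well above background on all 13 arrays. The listed pituitary genes are given together with the other markers below. Fetal triclosan replicate 4 lay alone on its slide and was scanned on its own day. Its GHRH, SST and GAL levels stood apart from the other fetal triclosan arrays and lay within the range of the fetal vehicle arrays, and the GHRH level of fetal vehicle replicate 4 was more like those of triclosan arrays. Labels were kept as given. The transcription factor gene STAT5A, described below, lay with the labelled group on both arrays, at −4.50 and −3.23. STAT5A was picked by its small p in a fit with these labels, so it is no check of them. The mean centred log2 value of 9 other peptide genes, also given below, stood apart from the labelled group on both arrays, at −0.91 and 0.35. Direct differences of the 6 genes are given with and without fetal triclosan replicate 4.

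The mean level of GHRH was higher on triclosan than on vehicle arrays in both arms. With fetal vehicle its level was −4.04, −4.82, −4.49 and −1.57 in replicates 1 to 4. With fetal triclosan it was 0.31, −1.1, −0.98 and −3.88. Replicates 1 to 3 of fetal triclosan lay above every vehicle array, whereas replicate 4 lay above vehicle replicates 1 to 3 and below vehicle replicate 4, which stood above its own group. In processed signal, fetal vehicle arrays ranged from 57.7 to 635 and fetal triclosan arrays from 94.5 to 1982. With maternal vehicle the GHRH level was −6.15 and −3.85, and with maternal triclosan −2.38, −1.93 and −1.55. These maternal groups did not overlap. By mean level the groups ran from fetal triclosan (−1.41, SD 1.76, n = 4) through maternal triclosan (−1.96, SD 0.41, n = 3) and fetal vehicle (−3.73, SD 1.47, n = 4) to maternal vehicle (−5.00, SD 1.63, n = 2). Each neighbouring pair in that order overlapped. In bulk tissue, fewer cells that make a transcript cannot be told apart from less transcript per cell.

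The SST probe lay in the top brightness decile of the array. Its level was 3.81, 2.46, 2.80 and 3.53 with fetal vehicle, and 4.54, 5.47, 4.49 and 2.67 with fetal triclosan. Again replicates 1 to 3 of fetal triclosan lay above all vehicle arrays, and replicate 4 lay within the vehicle range. With maternal vehicle the SST level was 3.47 and 2.76, and with maternal triclosan it was 4.36, 4.62 and 3.77, without overlap. The group means were 4.29 (SD 1.17) with fetal triclosan, 4.25 (SD 0.44) with maternal triclosan, 3.15 (SD 0.63) with fetal vehicle and 3.11 (SD 0.50) with maternal vehicle. Each pair of neighbours in that order overlapped, maternal triclosan and fetal vehicle only through fetal vehicle replicate 1.

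GAL had its highest mean level with fetal triclosan and its lowest with fetal vehicle. The maternal groups lay between them and close to each other. Its level was −0.94, −1.70, −1.77 and −0.75 with fetal vehicle, and 1.00, −0.21, −0.16 and −1.53 with fetal triclosan, with replicate 4 again within the vehicle range. With maternal vehicle it was −0.75 and −1.01, and with maternal triclosan −0.70, −0.62 and −1.15, so the maternal groups overlapped. The group means ran from fetal triclosan (−0.23, SD 1.04) through maternal triclosan (−0.82, SD 0.28) and maternal vehicle (−0.88, SD 0.19) to fetal vehicle (−1.29, SD 0.52), with overlap between each pair of neighbours.

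**Figure D1:**
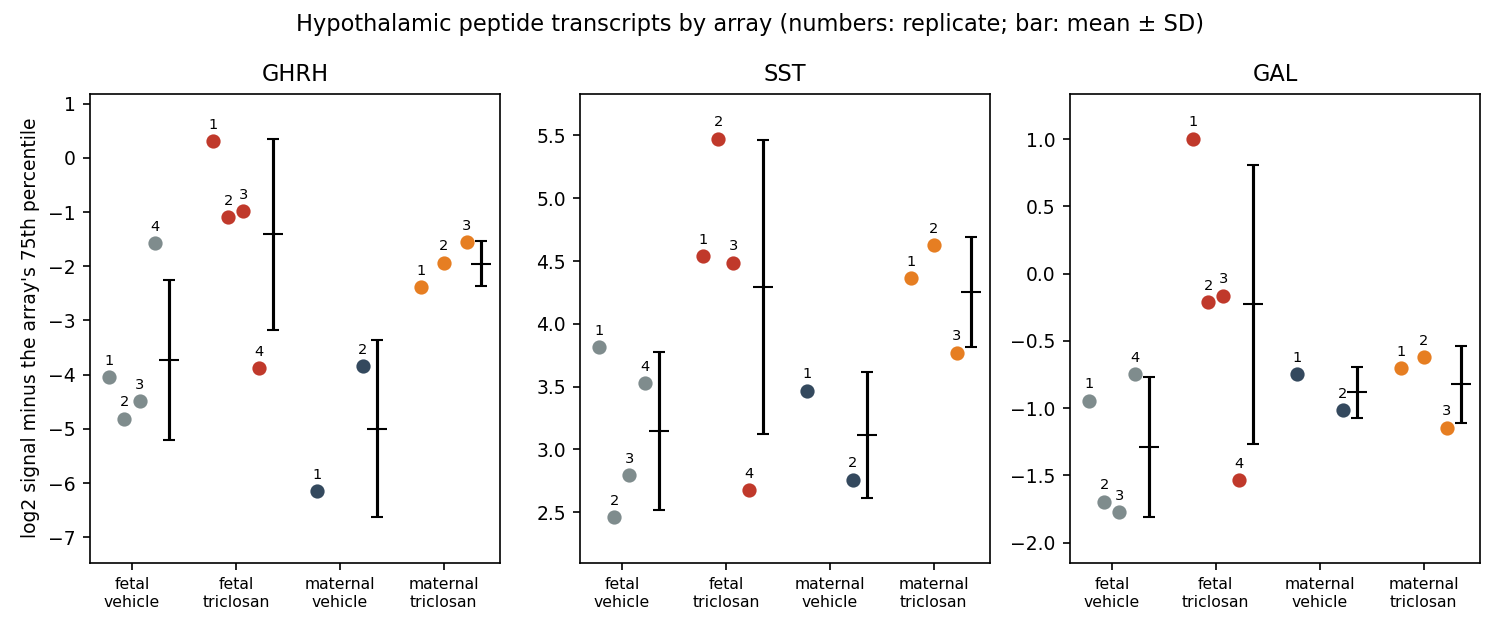
Levels of GHRH, SST and GAL on the 13 arrays (log2 processed signal minus the 75th percentile of the array), by group, with the replicate number above each point and the group mean ± SD as a bar. Fetal triclosan replicates 1 to 3 lie above the fetal vehicle arrays in all 3 panels, and replicate 4 lies within the range of the vehicle arrays, at −3.88 for GHRH, 2.67 for SST and −1.53 for GAL.

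The first comparison sets fetuses given triclosan against fetuses given vehicle. GHRH was 2.32 higher on the log2 scale with triclosan (SE 0.91, 95% interval 0.31 to 4.32), which is 4.98-fold. limma's moderated test gave a Benjamini-Hochberg adjusted p = 0.101 over 13740 probes, so it did not pass 0.05. Its difference ranked 11 of all probes from the top. The second GHRH probe gave 2.36 (adjusted p = 0.102 in limma). SST was 1.14 higher (SE 0.52, 95% interval 0.0096 to 2.28, adjusted p = 0.148 in limma), or 2.21-fold. GAL was 1.06 higher (SE 0.44, 95% interval 0.10 to 2.03, adjusted p = 0.116 in limma), or 2.09-fold. In each of these peptides, 3 of 4 triclosan arrays lay above all vehicle arrays, and 13.2% of probes showed this for the same 3 arrays. None of the 6 genes was called by limma, against 18.1% of all probes (6.8% higher and 11.3% lower), and the 3 peptides had an unadjusted p under 0.05, as did 4553 of the 13740 probes. Probes of similar brightness had a median difference of −0.21 for GHRH, 0.24 for SST and −0.06 for GAL, and all probes had −0.09. With arrays scaled to the median spot in place of the 75th percentile, that median was 0.13 and 2174 probes were called higher and 946 lower, in place of 935 and 1555. GHRH (2.54), SST (1.36) and GAL kept their direction there and did not pass.

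Without fetal triclosan replicate 4, limma called all 3 peptides, against 8.3% of all probes called higher. GHRH was then 3.14 higher (adjusted p = 0.0197), SST 1.68 (adjusted p = 0.0131) and GAL 1.5 (adjusted p = 0.0137). The array was singled out by the levels of these same peptides, so their calls without it are no independent support for a difference. With the slide as a block, that array, alone on its slide, no longer contributes to the differences. The values were then 3.24 (adjusted p = 0.0313), 1.63 (adjusted p = 0.0242) and 1.45 (adjusted p = 0.0148), against 8.06% of probes called higher. These calls too are no independent support. The other fetal array that decided a call was vehicle replicate 4: without it GHRH was 3.04 higher and passed. Vehicle replicate 4 was itself singled out by its high GHRH level, so this pass is no independent support either. Leaving out triclosan replicate 1 instead lowered GAL to 0.65, and leaving out triclosan replicate 2 lowered SST to 0.75. Within slides 1, 2 and 3 the triclosan minus vehicle difference was 4.35, 3.72 and 2.05 for GHRH. It was 0.72, 3.01 and 1.32 for SST, and 1.95, 1.48 and 1.1 for GAL. Fetal triclosan replicate 4 had no vehicle array on its slide and enters none of these values.

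**Figure D2:**
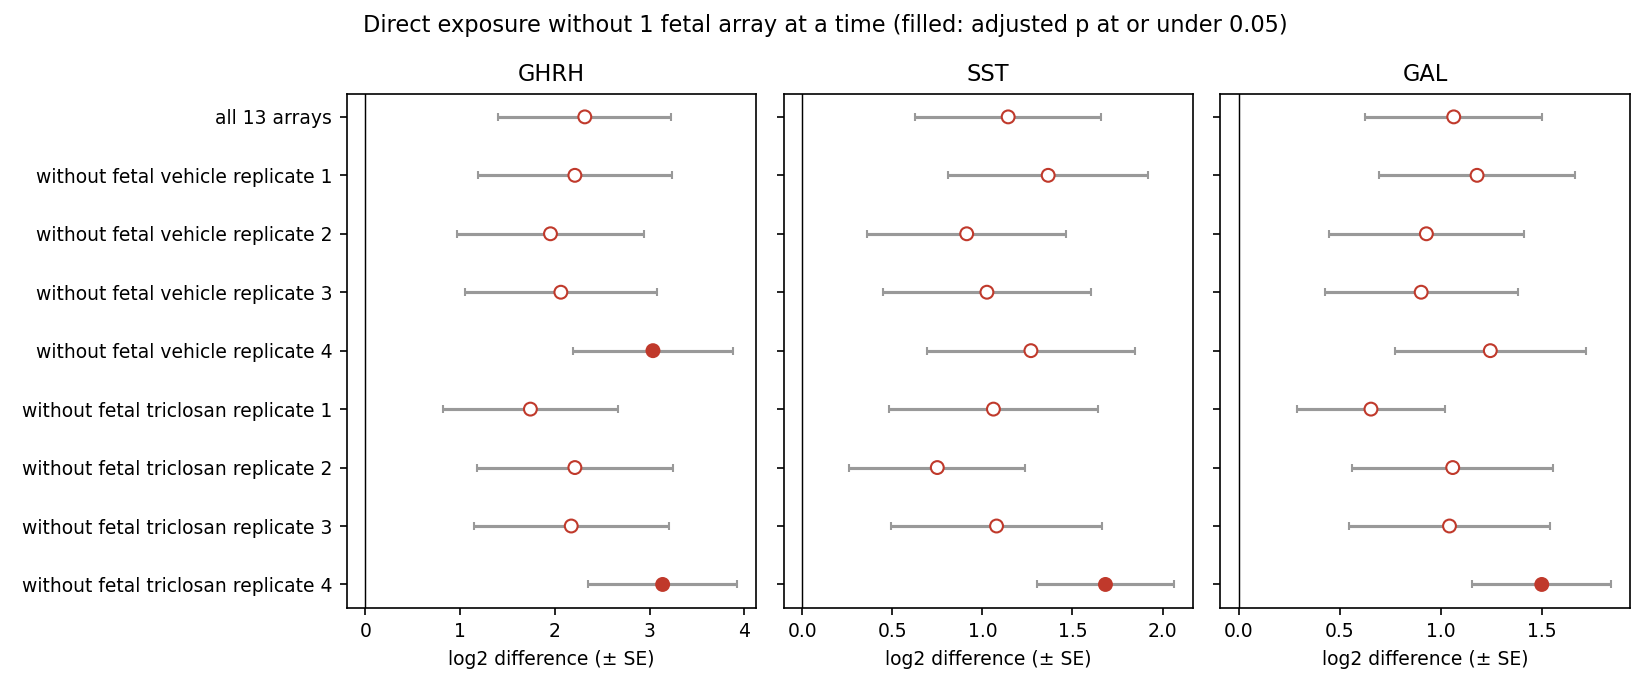
Log2 difference (± SE) of GHRH, SST and GAL between fetal triclosan and fetal vehicle in the fit of all 13 arrays and without each fetal array in turn, with filled points where limma's adjusted p was at or under 0.05. All 3 genes pass without fetal triclosan replicate 4, at 3.14, 1.68 and 1.5, and GHRH also passes without fetal vehicle replicate 4. Both arrays were singled out by levels of these same genes, so these passes are no independent support.

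limma called none of the receptors in the direct arm. The GHRHR signal was close to the detection limit. Its level was −4.08, −5.30, −7.34 and −6.10 with fetal vehicle and −5.08, −5.67, −4.64 and −5.43 with fetal triclosan, so the triclosan arrays lay inside the vehicle range. The difference was 0.50 (SE 0.58, 95% interval −0.77 to 1.77, adjusted p = 0.585 in limma), and 0.58 without fetal triclosan replicate 4. GHRHR was well above background on 11 of 13 arrays, with processed signals from 11.5 to 111, beside a lowest well-detected signal of 10.9 to 20.0 on these arrays. SSTR2 lay at −1.15, −1.39, −1.41 and −1.63 with fetal vehicle and at −1.72, −1.89, −1.31 and −2.03 with fetal triclosan. Its difference was −0.34 (SE 0.19, 95% interval −0.76 to 0.08, adjusted p = 0.244 in limma), and −0.24 without fetal triclosan replicate 4. The groups overlapped. GHR lay at −2.27, −2.42, −2.67 and −2.27 with fetal vehicle and at −2.39, −2.43, −2.69 and −3.80 with fetal triclosan. Its difference of −0.42 (SE 0.28, 95% interval −1.03 to 0.19, adjusted p = 0.328 in limma) rested on replicate 4. Without that array it was −0.09.

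**Figure D3:**
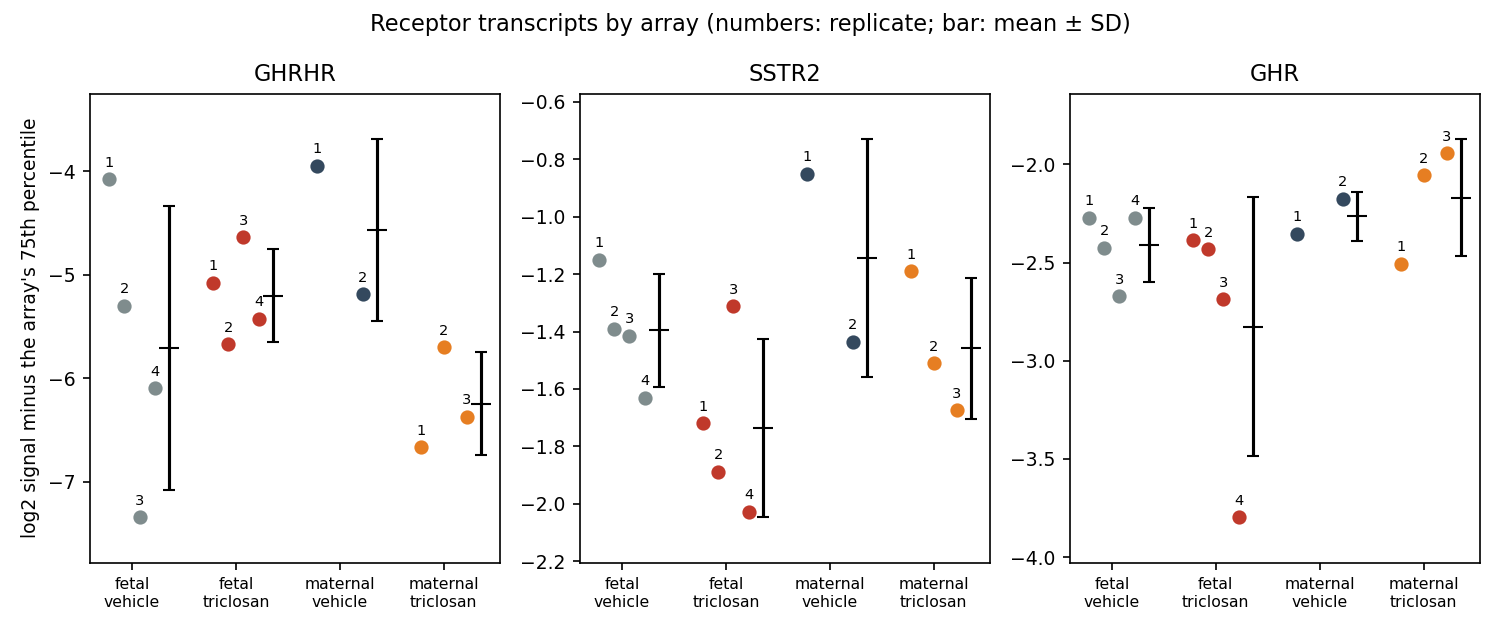
Levels of GHRHR, SSTR2 and GHR on the 13 arrays (log2 processed signal minus the 75th percentile of the array), by group, with the replicate number above each point and the group mean ± SD as a bar. GHRHR spreads from −7.34 to −4.08 among fetal vehicle arrays, and GHR is near −2.4 on most arrays except fetal triclosan replicate 4 at −3.80.

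The second comparison sets fetuses of triclosan-treated ewes against those of vehicle-treated ewes. GHRH was 3.04 higher (SE 1.18, 95% interval 0.46 to 5.63), or 8.24-fold, with adjusted p = 0.469 in limma. Only 2 vehicle arrays stand behind this value, which was 1.89 without maternal vehicle replicate 1 and 4.2 without replicate 2. SST was 1.14 higher (SE 0.67, 95% interval −0.32 to 2.60, adjusted p = 0.591 in limma), and GAL differed by 0.06 (SE 0.57, 95% interval −1.19 to 1.30, adjusted p = 0.981 in limma). Limma called 0% of probes in this arm, where 1324 probes had an unadjusted p under 0.05, among them GHRH and GHRHR. GHRH and SST did not overlap between the maternal groups, but neither did 19.9% of probes in that direction. Within slides 1 and 2, the only slides with both maternal groups, the differences were 3.77 and 1.91 for GHRH, 0.90 and 1.86 for SST, and 0.04 and 0.39 for GAL.

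GHRHR had a difference of the opposite sign to GHRH in the indirect arm. Its level was −3.94 and −5.19 with maternal vehicle and −6.67, −5.70 and −6.37 with maternal triclosan, without overlap. The difference was −1.68 (SE 0.75, 95% interval −3.33 to −0.04, adjusted p = 0.515 in limma), or 3.21-fold lower, and 19% of probes had non-overlapping groups in that direction. On maternal triclosan replicate 1 the probe was not well above background, so this difference lies near the detection limit. Within slides 1 and 2 it was −2.73 and −0.51, and it was −1.06 without maternal vehicle replicate 1 and −2.30 without replicate 2. SSTR2 lay at −0.85 and −1.44 with maternal vehicle and at −1.19, −1.51 and −1.67 with maternal triclosan, a difference of −0.31 (SE 0.25, adjusted p = 0.679 in limma). GHR lay at −2.35 and −2.18 with vehicle and at −2.51, −2.06 and −1.94 with triclosan, a difference of 0.10 (SE 0.36, adjusted p = 0.945 in limma). Both receptors overlapped between the maternal groups.

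By mean level, GHRHR ran from maternal vehicle (−4.56, SD 0.88) through fetal triclosan (−5.20, SD 0.45) and fetal vehicle (−5.70, SD 1.37) to maternal triclosan (−6.25, SD 0.50). SSTR2 ran from maternal vehicle (−1.14, SD 0.41) through fetal vehicle (−1.40, SD 0.20) and maternal triclosan (−1.46, SD 0.25) to fetal triclosan (−1.74, SD 0.31). GHR ran from maternal triclosan (−2.17, SD 0.30) through maternal vehicle (−2.26, SD 0.12) and fetal vehicle (−2.41, SD 0.19) to fetal triclosan (−2.83, SD 0.66). Every neighbouring pair of groups overlapped for these 3 receptors.

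**Figure D4:**
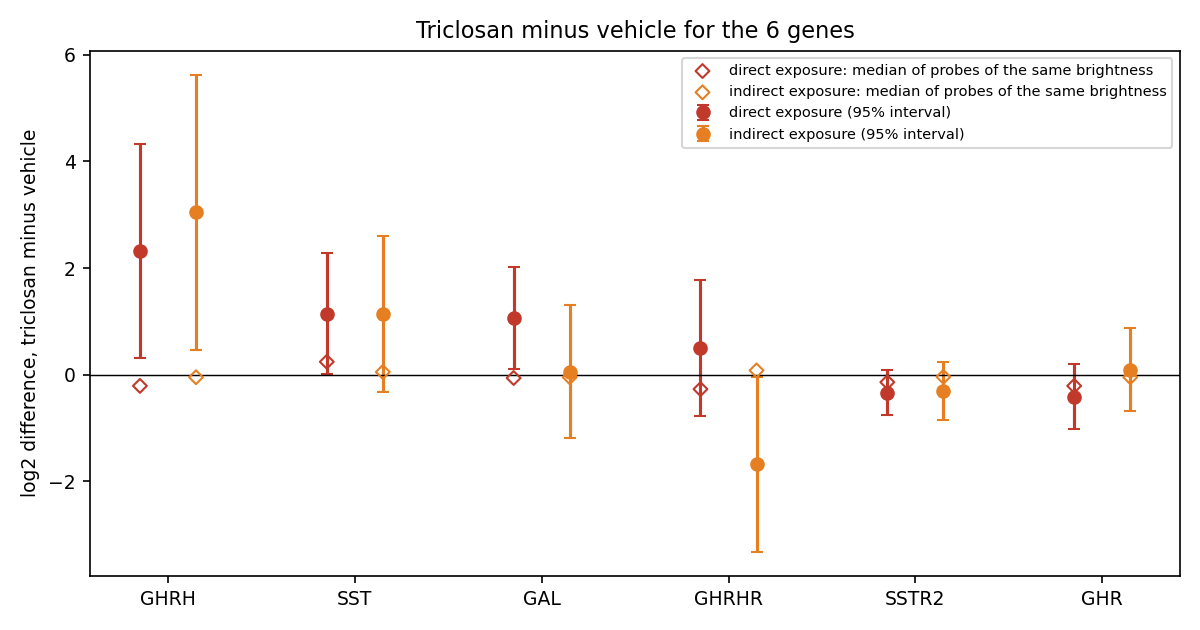
Log2 difference between triclosan and vehicle for the 6 genes in the direct and the indirect arm (filled points, bars are 95% intervals of the limma fit), beside the median difference of all probes of the same brightness decile (open diamonds). GHRH lies at 2.32 and 3.04 and SST at 1.14 in both arms, while GAL lies at 1.06 in the direct and 0.06 in the indirect arm.

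The difference between the arms was tested in the same fit. For GHRH the direct minus the indirect difference was −0.73 (SE 1.49, 95% interval −4.00 to 2.55, adjusted p = 0.826 in limma). For SST it was 0.0033 (95% interval −1.85 to 1.85), and for GAL 1.01 (SE 0.72, 95% interval −0.56 to 2.58, adjusted p = 0.497 in limma). GHRHR had 2.18 (SE 0.95, 95% interval 0.10 to 4.26, adjusted p = 0.326 in limma). SSTR2 had −0.03 and GHR −0.51. None of the 6 passed in limma, as for 0% of probes. At an unadjusted p under 0.05 there were 2013 probes, with GHRHR the only member. The vehicle groups themselves differed by −1.27 for GHRH (maternal minus fetal), 1.14 for GHRHR, 0.41 for GAL, 0.25 for SSTR2, 0.15 for GHR and −0.04 for SST. Here too limma called 0% of probes (449 at an unadjusted p under 0.05, no member among them). The GHRH intervals of the direct, indirect and arm contrasts are each several log2 units wide, so arms that differ severalfold are not told apart at these group sizes.

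Since GHRH and SST were higher on the triclosan arrays of both arms, the mean of both exposures was estimated in the same fit, a contrast added after those values were seen. GHRH was 2.68 higher over both exposures (SE 0.75, 95% interval 1.04 to 4.32), or 6.41-fold, with adjusted p = 0.0460 in limma. Its probes ranked 3 and 2 of 13740 from the top, and the second probe gave 2.75 (adjusted p = 0.0457 in limma). Limma called 9.34% of all probes in this contrast, 3.2% higher and 6.14% lower. GHRH was the only called member, with SST at 1.14 (SE 0.42, adjusted p = 0.113 in limma), GAL at 0.56, GHRHR at −0.59, SSTR2 at −0.33 and GHR at −0.16. The GHRH call was close to the threshold. Over 26 alternatives its difference ranged from 1.76 to 3.26 with adjusted p from 0.0115 to 0.223, and 12 of them kept the call. Of the fits that left out 1 array, it passed only without fetal triclosan replicate 4 and without fetal vehicle replicate 4. Both arrays were singled out by their GHRH levels, so these passes are no independent support.

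GHRH was among the most variable transcripts within groups. Its within-group SD was 1.45 on the log2 scale, above that of 99.3% of probes, beside a median of 0.27 over all probes. GHRHR had 0.91 (above 95.2% of probes), SST 0.81 (93.1%), GAL 0.69 (89.7%), GHR 0.42 (73.7%) and SSTR2 0.28 (50.8%). The peptides varied together. Over the 13 arrays Pearson's r was 0.72 between GHRH and SST (adjusted permutation p = 0.0068 for r, Spearman's rho 0.72). It was 0.73 between GHRH and GAL (adjusted permutation p = 0.0054 for r, rho 0.70). Between SST and GAL it was 0.76 (adjusted permutation p = 0.0054 for r, rho 0.85), with p adjusted over these 3 pairs. Without the 2 arrays farthest from the median of the first gene, r was 0.81, 0.84 and 0.74. With the group means subtracted, r was 0.51 (adjusted permutation p = 0.2), 0.76 (adjusted permutation p = 0.097) and 0.73 (adjusted permutation p = 0.1), so none passed within groups. Without the 2 farthest arrays, the first of these fell to 0.12. No slide held more than 4 arrays, too few for r within slides.

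**Figure D5:**
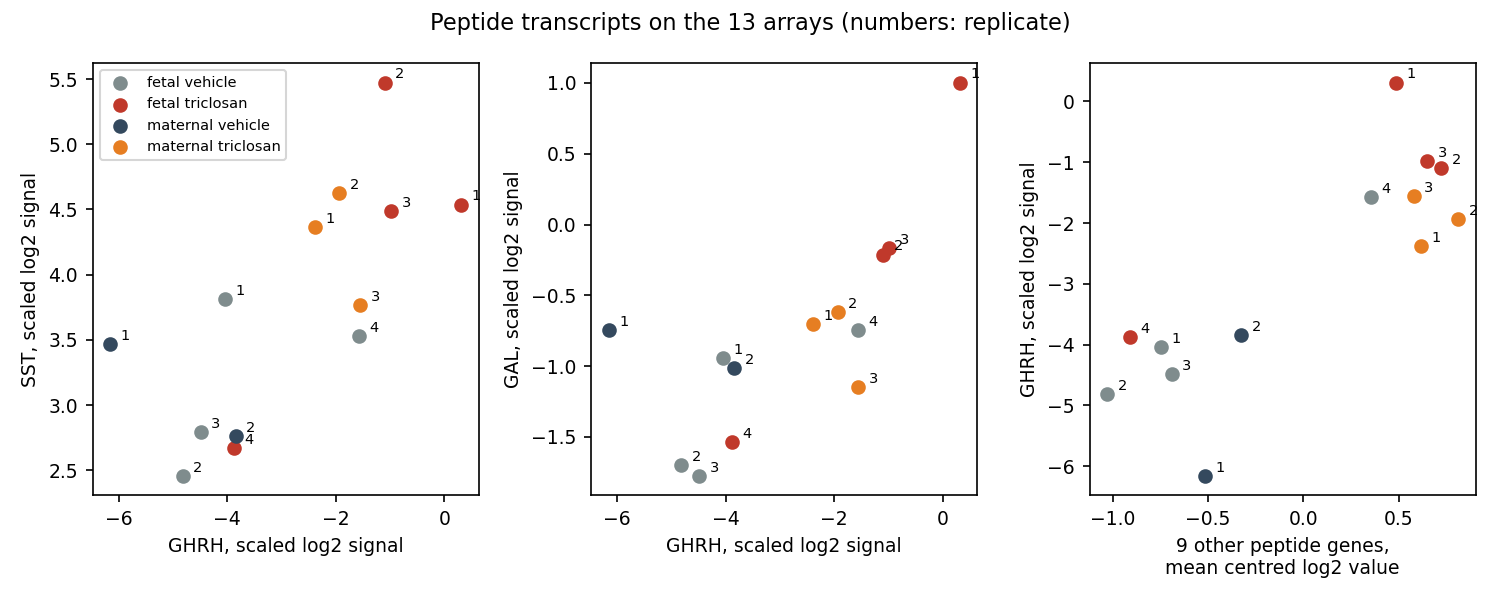
Levels of SST and GAL against GHRH, and of GHRH against the mean centred log2 value of 9 other hypothalamic peptide genes, on the 13 arrays, coloured by group with the replicate number beside each point. Fetal triclosan replicate 4 lies with the vehicle arrays and fetal vehicle replicate 4 with the triclosan arrays in the panel of the 9 peptides.

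Other peptides of hypothalamic neurons had differences of the same sign as GHRH. Of 24 listed peptides and transmitter enzymes, 9 were measured. All 9 had a positive difference in the direct arm, with a median of 0.64 beside −0.09 over all probes. Limma called 0 of 9, against 18.1% of all probes. At an unadjusted p under 0.05 there were 3 of 9, beside 4553 of the 13740 probes. The smallest p belonged to TAC1 (0.37, adjusted p = 0.0523 in limma), the precursor of substance P. GNRH1, the gonadotropin-releasing hormone, had 1.61 and TAC3, the neurokinin B gene, 0.90. The settings that brought the member peptides past the threshold did so for some of these as well. Without fetal triclosan replicate 4 limma called NPY (1.26, adjusted p = 0.0219) and TAC3 (1.31, adjusted p = 0.0093), beside 8.3% of all probes called higher. With the slide as a block it called AGRP (2.43), NPY (1.32) and TAC3 (1.28), beside 8.06% of all probes. Both settings take out the same array, which also stood apart in the mean of these 9 genes, so these calls are no independent support. In the indirect arm 8 of 9 were positive with a median of 0.73, beside 0.0068 over all probes. Limma again called 0, as for 0% of all probes. At an unadjusted p under 0.05 there were 3 of 9, beside 1324 of the 13740 probes. The appetite peptide AGRP had 3.42, NPY 1.70 and POMC, the melanocortin precursor, 1.66, with adjusted p from 0.458 to 0.493 in limma. Over both exposures TAC1 rose by 0.35 (adjusted p = 0.0469 in limma), the only gene of the 9 that passed, beside 3.2% of all probes called higher. The TAC1 call was kept by 10 of 26 alternatives. Averaged over the 9 genes and centred on all arrays, the log2 value was −0.75, −1.03, −0.69 and 0.35 with fetal vehicle and 0.49, 0.72, 0.65 and −0.91 with fetal triclosan. It was −0.51 and −0.33 with maternal vehicle and 0.62, 0.81 and 0.58 with maternal triclosan. Fetal triclosan replicate 4 and fetal vehicle replicate 4 stood apart from their groups here as for GHRH. The part of this shared movement in the GHRH, SST and GAL differences was not tested.

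Markers of other tissues were read on the same arrays, as sums of linear scaled signals. For red blood cells 3 of 6 listed genes were measured. Their sum was 4.28 to 12.5 on fetal vehicle arrays, 11.8 to 23.4 on fetal triclosan, 3.28 to 8.90 on maternal vehicle and 10.5 to 26.8 on maternal triclosan arrays. It was 23.4 on fetal triclosan replicate 4, where GHRH was low. The mean centred log2 value of these 3 genes did not overlap between vehicle and triclosan in either arm. It was −0.58 to −0.19 on fetal vehicle and 0.13 to 1.29 on fetal triclosan arrays. On maternal vehicle arrays it was −1.50 to −0.58, and on maternal triclosan arrays −0.07 to 0.30. For the anterior pituitary 6 of 8 were on the array and 5 were tested. The sums of the 6 were 10.7 to 15.9, 10.8 to 20.1, 13.6 to 15.0 and 14.3 to 17.7 in the same order. For the choroid plexus 2 of 5 were measured, with sums of 0.51 to 2.58, 0.25 to 10.4, 0.93 to 1.43 and 0.30 to 0.67. For the endothelium 6 of 8 were on the array and 5 were tested. The sum of the 6 was 0.88 to 1.21 on fetal vehicle and 0.59 to 0.87 on fetal triclosan arrays, without overlap. It was 1.02 to 1.08 and 0.86 to 1.15 on maternal vehicle and triclosan arrays. In the direct arm limma called 2 of the 5 tested genes lower, KDR and CD93, beside 11.3% of all probes. Of the other marker genes it called 1 of 4 for astrocytes and 1 of 2 for microglia lower. It called 1 of 3 for red blood cells and 1 of 5 for the meninges higher, beside 6.8% of all probes. The pituitary, thalamic, choroid plexus and ependymal genes had no call there. For astrocytes 4 of 8 were measured, with overlapping sums of 61.6 to 77.3 on fetal vehicle and 64.2 to 91.3 on fetal triclosan arrays. Their mean centred log2 value did not overlap, at 0.17 to 0.26 and −1.03 to −0.06, nor did it between maternal vehicle (0.52 to 0.54) and maternal triclosan (−0.38 to 0.26). The 1 measured gene of 5 listed for the ependyma overlapped between the fetal groups (40.6 to 50.8 and 40.2 to 88.1). In the maternal groups it did not overlap, with 58.3 to 64.2 on vehicle arrays and 76.0 to 94.7 on triclosan arrays. The sums of the listed thalamic, microglial and meningeal genes overlapped between vehicle and triclosan in both arms. In the maternal groups the mean centred log2 value did not overlap for microglia, with 0.42 to 0.43 on vehicle and −0.43 to 0.12 on triclosan arrays. Nor did it for the meninges, with −0.02 to 0.10 and 0.30 to 0.92. That value overlapped for the thalamic gene there, and for each of these lists in the fetal groups. Among single probes, 12.7% had fetal groups without overlap and with triclosan lower. In the maternal groups 19.9% had no overlap with triclosan higher and 19% with triclosan lower. A list without overlap in the maternal groups is not set apart by that. None of the measured markers was below background on every array. Fetal triclosan replicate 1, with the highest GHRH and GAL levels, had the lowest choroid plexus sum (0.25). Fetal triclosan replicates 3 and 2, which also had high peptide levels, had the highest (10.4 and 3.96). The part of these markers in the peptide differences was not tested.

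Of 40 further genes of the growth hormone axis, 25 were on the array and 23 were tested. In the direct arm limma called 0 higher and 4 lower, 1 of them not well above background with triclosan, beside 11.3% of all probes called lower, so the count does not set the axis apart. The median difference was −0.29 beside −0.09 over all probes. STAT5A, the transcription factor through which growth hormone and prolactin receptors signal, fell by 0.97 (SE 0.16, adjusted p = 0.0043 in limma). Its level was −3.41, −3.61, −3.53 and −3.23 with fetal vehicle and −4.52, −4.55, −4.10 and −4.50 with fetal triclosan. All 4 triclosan arrays lay below all vehicle arrays, replicate 4 included, as they did for 12.7% of probes. The second STAT5A probe gave −1.06 (adjusted p = 0.0103 in limma), and the call held in 27 of 27 alternatives, which ranged from −1.08 to −0.56. In the indirect arm STAT5A had −0.35 (adjusted p = 0.592 in limma).

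IGF1R, the receptor of insulin-like growth factors, fell by 0.83 (SE 0.17, adjusted p = 0.0100 in limma), in 27 of 27 alternatives, whereas its second probe gave −0.45 (adjusted p = 0.147 in limma). IGF2R, which clears IGF2 and carries lysosomal enzymes, fell by 0.80 (SE 0.20, adjusted p = 0.0192 in limma). The call was lost in 4 of 27 alternatives, among them the fit without fetal vehicle replicate 3 (−0.70, adjusted p = 0.0649 in limma). Of its other probes, −1.12 passed and −0.28, from a probe well above background on 7 arrays, did not. PAPPA, a protease that frees insulin-like growth factors from a binding protein, was the other call. It was well above background on 3 of 4 fetal vehicle arrays, on 0 of 4 fetal triclosan arrays and on no maternal array, so it passed the filter only through the group where it was higher. Its vehicle mean lay below the detection bound of the triclosan arrays, and no drop is given. Over both exposures STAT5A fell by 0.66 and IGF1R by 0.53, and IGFBP6, a binding protein of insulin-like growth factors, rose by 0.50. They were the only calls there, 2 lower and 1 higher of 23, beside 6.14% and 3.2% of all probes. The calls held in 24, 12 and 10 of 26 alternatives, and that of STAT5A was lost without either maternal vehicle array. In the indirect arm limma called 0 of 23, as for 0% of all probes, with a median of 0.15. At an unadjusted p under 0.05 there were 4 of 23, beside 1324 of the 13740 probes. The smallest p values there belonged to IGFBP6 (0.76), PRL (−1.57), IGF1 (0.62) and IGF2 (1.57).

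The other receptors of the member peptides are named here although the naming rule does not reach them. In the direct arm SSTR1 had −0.29, SSTR5 0.08, GALR1 0.09 and GALR3 0.16, and in the indirect arm 0.03, 0.47, −0.13 and −0.39. None passed in limma. The probes of SSTR5 differed in sign in the direct arm, with −0.32 for the second probe. GHSR, the ghrelin receptor, was well above background on 0 arrays. Among 24 listed regulators of these neurons and of cAMP signalling, 11 were tested and limma called 2 in the direct arm, close to the 18.1% of all probes. The glucocorticoid receptor NR3C1 rose by 0.69 (adjusted p = 0.0154 in limma), and ARNT2, a partner of SIM1 in hypothalamic development, fell by 0.77 (adjusted p = 0.0208 in limma). The second ARNT2 probe gave −0.54 (adjusted p = 0.0506 in limma) and did not pass. The NR3C1 call held in 27 of 27 alternatives and that of ARNT2 in 21.

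The named genes whose levels ran most like those of each member over the 13 arrays are given by Pearson's r, from 900 genes searched, as a description. For GHRH they were PHF14 (0.91), POMC (0.85) and AGRP (0.85), the last a pair of arcuate peptides. For SST they were TAC3 (0.94), the oestrogen receptor ESR1 (0.88) and the oxytocin receptor OXTR (0.84). For GAL they were ESR1 (0.87), VDUP1 (0.85) and DIRAS3 (0.83). For GHRHR they were ddit3, KRT2.11 and UMPS (0.88 to 0.89), and for SSTR2 they were GRIN1, a glutamate receptor subunit (0.91), FTO (0.88) and PRKAA2 (0.88). For GHR they were ISL1 (0.88), NRP2 (0.85) and EPAS1 (0.85). ISL1 and NRP2 had a Spearman's rho of only 0.49 and 0.53 with GHR, whose value on fetal triclosan replicate 4 lay far below the rest. VDUP1 had a rho of 0.60 with GAL. All arrays share their scaling and, within a slide, their hybridisation.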

How the data were processed

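Per the file headers, the scanner files hold spot intensity values from Agilent Feature Extraction 10.1.1.1, with a processed signal that was background-subtracted but not normalised between arrays. The value table deposited by the authors is probably log2: each of the 14 columns came closest to the log2 processed signal of the array it is named for. Neither its scaling nor its filter is stated. The submitters' processing notes list limma, with no role.

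For the values here, log2 of the processed signal was taken, the 75th percentile of each array subtracted, control spots and outlier spots left out, and spots of a probe averaged. Probes well above background on at least 3 arrays were kept (13740 of 15008). limma 3.58.1 in R 4.3.3 fitted a mean per group to 13 arrays (9 residual and 2.36 prior degrees of freedom), with two-sided tests and Benjamini-Hochberg adjustment over all kept probes at 0.05. The fit was tested on simulated data. Correlations used 100000 permutations. Alternatives covered background, scaling, filter, array weights, slide and replicate blocks, all 14 arrays, and each array left out. The number of arrays limits the precision.

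Genes were named from the files and a supplied gene table, and the probe of the highest mean stands for a gene. The named genes are the 6 members, up to 4 genes per list and comparison with the smallest p, and the 3 genes most like each member. The members, lists and tests were chosen with earlier results of these data known. Coordinates are not given, since no genome was used.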

Additional observations from a re-analysis of the deposited data

How the results depend on the processing

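The members' direct and indirect differences kept their direction under all alternatives run, except indirect GHR, indirect GAL and direct GHRHR; the cause was not tested where a call changed. With the slide as a block, direct GHRH (3.24), SST (1.63) and GAL (1.45) passed, so 3 members were called. That block takes fetal triclosan replicate 4, alone on its slide, out of every comparison, so its calls are no independent support. With array weights GAL (1.48) alone passed, so 1 was called. Direct probes called numbered 1589 with quantile normalization and 1275 with only the 2 fetal groups. Indirect GHR was −0.0034 with normexp and −0.053 with array weights, and indirect calls numbered 12 with all 14 arrays and 408 with array weights. For the difference between the arms, GHRH was 0.36 (normexp), 0.40 (slide block) and 0.032 (array weights), and SST −0.15 (normexp), −0.25 (quantile), −0.32 (authors' table) and −0.17 (replicate block). SSTR2 was 0.052 (normexp), 0.15 (median scaling), 0.13 (quantile), 0.10 (authors' table) and 0.042 (slide block). Arm calls numbered 1 with quantile normalization and 4 with all 14 arrays. Between the vehicle groups SST was 0.0066 (quantile) and GHR −0.022 (replicate block). Over both exposures GHRH lost its call with normexp (1.76), without a filter (2.68, adjusted p = 0.0536 in limma) and with the replicate block (2.68), each leaving 0 members called. The slide block called 3, with SST at 1.44 and GAL at 0.80 and GHR at 0.0041, and array weights called 2, with SST at 1.26. Probes called were then 2372 (all 14 arrays), 2608 (slide block) and 3015 (array weights). Among other genes, direct PAPPA, not well above background with triclosan, was positive with normexp (0.041) and direct SSTR5 −0.12 over all its probes. Indirect SSTR1 was −0.018 (normexp), −0.13 (replicate block), −0.13 (slide block), −0.021 (array weights) and −0.074 (all its probes).

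The replicate numbers were not taken to pair the samples, since the labels tie them to no litter or day. Same-numbered arrays were correlated over probes by their deviations from the group means. The values were 0.13, 0.12, 0.26 and −0.17 in the direct arm, −0.08 and −0.08 in the indirect arm, and 0.46 and 0.14 between the vehicle groups. Deviations of the 2 maternal vehicle arrays mirror each other, and groups are small, so these correlations cannot decide whether samples were paired. Arrays numbered 1, 2 and 3 did lie on slides 1, 2 and 3, which the slide block covers. With the replicate block direct GHRH was 2.32 (adjusted p = 0.159 in limma), and direct calls numbered 2824.

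With 1 array left out at a time, direct GHRH ranged from 1.74 to 3.14, SST from 0.75 to 1.68, GAL from 0.65 to 1.5 and GHRHR from −0.046 to 1.04, with 0 to 3 members and 1214 to 2951 probes called. Indirect GHRH ranged from 1.89 to 4.2, GHRHR from −2.30 to −1.06, GAL from −0.077 to 0.22 and GHR from −0.017 to 0.26, with 0 to 2 probes called. Between the arms GHRH ranged from −1.88 to 0.43, SST from −0.39 to 0.54 and SSTR2 from −0.32 to 0.27, with 0 to 12 probes called. Between the vehicle groups SST ranged from −0.39 to 0.32 and SSTR2 from −0.040 to 0.55, with 0 to 2 probes called. Over both exposures GHRH ranged from 2.10 to 3.26, SST from 0.94 to 1.41 and GHR from −0.23 to 0.0013, with 0 to 2 members and 0 to 2215 probes called. Direct SSTR5 ranged from −0.18 to 0.27 and GALR1 from −0.0082 to 0.20, and indirect SSTR1 from −0.072 to 0.12 and GALR1 from −0.34 to 0.081. Leaving out either maternal vehicle array leaves 1, which is then assumed to vary like the other groups. GHRHR, near the detection limit, is the member least well measured.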
